A study of Mus musculus with 37 samples.

Results

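MHC class II genes were examined in the nonmyocytes of injured mouse hearts, taken 7 days after ischemic cardiac injury. The 7 genes were chosen by name, with earlier results of these data known, from 31053 genes in each of the 2 single-cell tables: H2-Aa (ENSMUSG00000036594), H2-Ab1 (ENSMUSG00000073421), H2-Eb1 (ENSMUSG00000060586), H2-DMa (ENSMUSG00000037649), H2-DMb1 (ENSMUSG00000079547), Cd74 (ENSMUSG00000024610) and Ciita (ENSMUSG00000022504). All 7 were measured in both libraries. The ENPP1CKO library came from C57BL/6 mice carrying Col1a2CreERT and floxed ENPP1 alleles, in which tamoxifen, given before and after injury, activates a Cre recombinase driven by a promoter of fibroblasts. The control library came from littermates that the labels call wild type, injured in the same way. How many hearts were pooled in each library, and the age of the animals, is not given in the sources used here. With 1 library for each genotype there are no replicates, so no test was made: a difference below is one between these 2 libraries, and each interval covers counting error only.

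MHC class II molecules display peptides from engulfed proteins to CD4 T cells. H2-Aa and H2-Ab1 encode the alpha and beta chain of the I-A molecule, and H2-Eb1 encodes the beta chain of I-E, whose alpha chain C57BL/6 mice do not make. Cd74 encodes the invariant chain, which fills the groove and guides the complex to the endosome, where H2-DMa and H2-DMb1 form the exchange factor that swaps its remnant for a peptide. Ciita encodes the coactivator that turns these genes on: constitutively in dendritic cells and B cells, and after interferon gamma in macrophages and many other cells. When a B cell becomes a plasma cell, Ciita is shut off.

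Of the 7 genes, 5 lie together in the H2 complex on chromosome 17, at (GRCm38, GENCODE annotation) chr17:34119541-34139101 for H2-DMa, chr17:34153072-34160230 for H2-DMb1, chr17:34257689-34269419 for H2-Ab1, chr17:34282744-34287823 for H2-Aa, on the minus strand, and chr17:34305867-34316674 for H2-Eb1. Ciita lies at chr16:10480059-10528418. Class II promoters are known to share an X box and a Y box that hold the proteins Ciita docks on. The stretch with both was searched for in RefSeq promoters (GRCm38.p6, the 250 bases before each start), with CTNGNAAC for an X-box-like sequence and ATTGG for the Y box, which reads CCAAT on the other strand. These letters were chosen after the promoters had been read. Cd74 was left out of this search, and of the other members 4 had a promoter listed. H2-Aa (chr17:34287855-34287919, minus strand, 65 bases) and H2-Eb1 (chr17:34305761-34305824, plus strand, 64 bases) are shown 5′ to 3′, with the X-box-like and Y-box letters in capitals. They are the stretches of members that held both and overlapped no exon of their gene:
H2-Aa: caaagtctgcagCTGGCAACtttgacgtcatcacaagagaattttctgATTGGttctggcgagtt
H2-Eb1: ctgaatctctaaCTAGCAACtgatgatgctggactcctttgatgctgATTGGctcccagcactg

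The X-box-like letters began 84 bases before the start of H2-Aa and 94 before that of H2-Eb1, and the Y box began 36 and 35 bases after them. H2-DMb1 held the same pair, 36 bases apart, and H2-DMa, which has 2 listed starts, did not hold it in either window. Of the 8 class II genes searched, members or not, 4 held the pair. On either strand, CTNGNAAC was found in 3594 of 32851 promoters (10.9%) and ATTGG in 11120 (33.8%). Both letters on the strand of the gene, X before Y within 40 bases, were found in 50 of them (0.152%). A match is a description of the letters in the window and no match says nothing of the factor.

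After filters and removal of predicted doublets, 7252 ENPP1CKO cells held 26917378 counts (median 3365 per cell) and 5236 control cells held 22171944 counts (median 3701). The libraries shared 68 barcode sequences. Enpp1, the targeted gene, was counted 460 times in ENPP1CKO fibroblast-like cells (28.6 CPM, counts for each 1000000 counts of a group of cells) and 1231 times in control ones (126 CPM), a log2 ratio of -2.14, and in macrophage-like cells it stood at 11.1 against 13.3 CPM. Cells were clustered without any class II gene and classes named from other markers. Macrophage-like cells made up 27.9% of ENPP1CKO cells and 48.1% of control cells, and fibroblast-like cells 50.5% and 34.0%. All levels below are counts summed over the cells of a class and library and given as CPM of that sum.

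Class II transcripts were concentrated in dendritic-like, B cell-like and macrophage-like cells. The 7 genes together reached 82295 CPM (95% Poisson interval 81371 to 83228) in 84 ENPP1CKO dendritic-like cells and 77011 CPM (76170 to 77859) in 96 control ones. B cell-like cells stood at 10127 CPM (28 cells) and 35334 CPM (81 cells), and macrophage-like cells at 17297 CPM (2022 cells) and 13810 CPM (2520 cells). Dendritic-like cells were above both other classes in each library. Of the other two, B cell-like cells were higher in the control library and macrophage-like cells in the ENPP1CKO library. Without the B cell-like cells that had a count of Jchain, a gene of antibody-secreting cells described below, B cell-like cells stood at 34611 and 38272 CPM, above macrophage-like cells in both libraries.

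Below these came T or NK cell-like cells at 1402 and 1530 CPM in ENPP1CKO and control, and neutrophil-like cells at 826 and 1611 CPM, whose ranges over the libraries overlap. Endothelial-like cells stood at 284 and 295 CPM and fibroblast-like cells at 147 and 249 CPM. The log2 ratio of the endothelial-like sum (-0.06) depended on processing, from -1.45 with the stricter cell filter to 0.50 with free RNA subtracted. Smooth muscle or pericyte-like cells (173 and 1110 CPM), lymphatic endothelial-like cells (235 and 852 CPM) and cardiomyocyte-like cells (788 and 225 CPM) crossed the ranges of their neighbours. Schwann or glial-like cells held 0 counts in ENPP1CKO and 10 in control.

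In several of the low classes 1 cell carried most of the sum. In control smooth muscle or pericyte-like cells, 1 of 77 cells held 330 of 417 counts. The share in the highest cell was 81.7% and 60.6% in T or NK cell-like cells of ENPP1CKO and control, 63.4% in control lymphatic endothelial-like cells and 60.3% in control neutrophil-like cells, and in ENPP1CKO cardiomyocyte-like cells 1 cell held 27 of 36 counts. The levels of these groups of cells mostly rest on 1 barcode each.

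**Figure D1:**
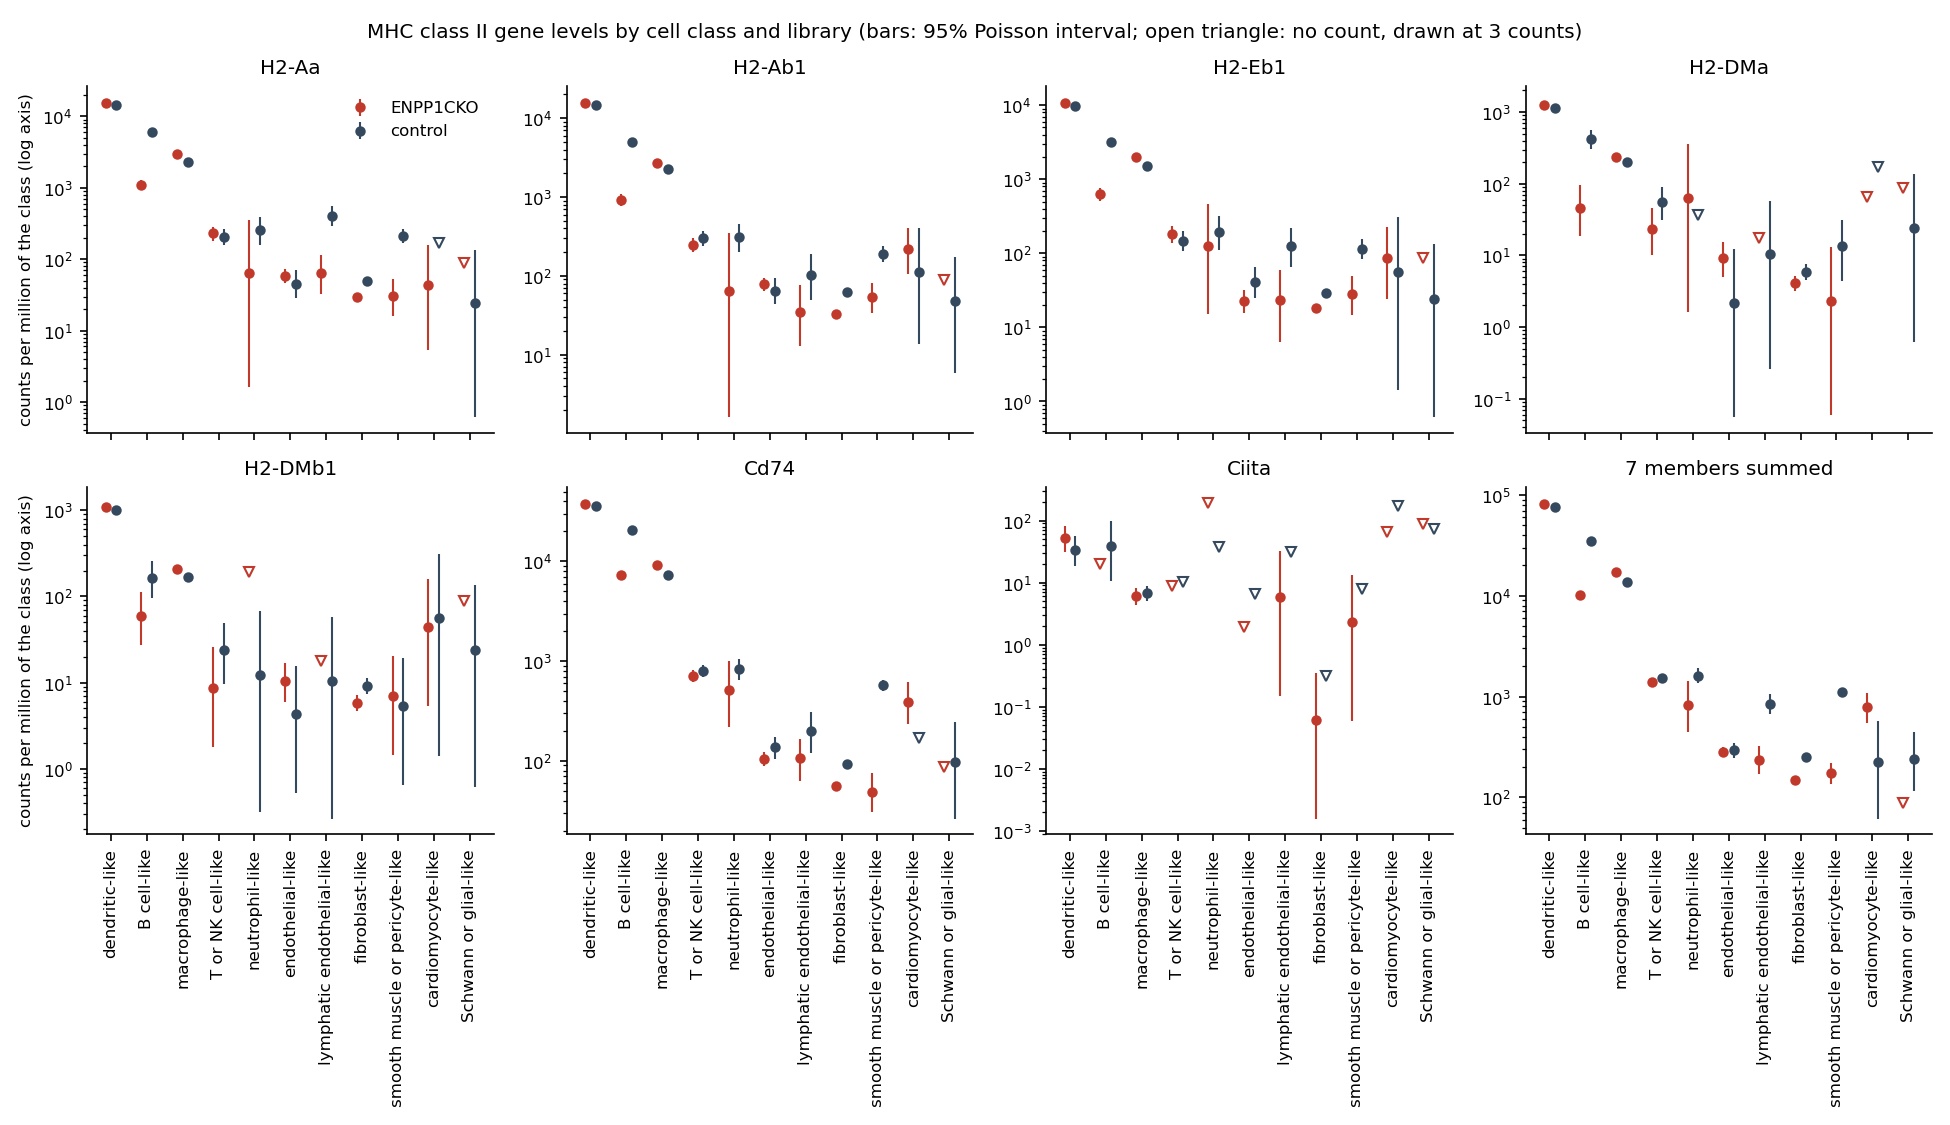
Levels of each of the 7 genes and of their sum by cell class, in CPM on a log axis, with ENPP1CKO in red and control in blue-grey; bars are 95% Poisson intervals and an open triangle marks no count, drawn at 3 counts. Dendritic-like cells were highest for the sum (82295 and 77011 CPM), and each chain gene and Cd74 was also highest there in both libraries. Among these classes Ciita had more than 1 count only in dendritic-like, macrophage-like and B cell-like cells.

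The order of the classes was not the same for every member. H2-Aa, the I-A alpha chain, was at 15605 and 14374 CPM in ENPP1CKO and control dendritic-like cells, at 2927 and 2319 CPM in macrophage-like cells, at 1110 and 6059 CPM in B cell-like cells and at 29.5 and 49.0 CPM in fibroblast-like cells. H2-Ab1, its partner, was at 15720 and 14828 CPM in dendritic-like, 2661 and 2280 CPM in macrophage-like and 917 and 4926 CPM in B cell-like cells. H2-Eb1 was at 10759 and 9631 CPM in dendritic-like, 1987 and 1530 CPM in macrophage-like and 631 and 3140 CPM in B cell-like cells. In all 3 chain genes the ENPP1CKO value was the higher one in dendritic-like and macrophage-like cells and the lower one in B cell-like cells. Without Jchain cells the B cell-like log2 ratios of H2-Aa, H2-Ab1 and H2-Eb1 were -0.05, -0.17 and -0.04, with intervals that included 0.

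The exchange factor genes kept the order of dendritic-like above macrophage-like cells. H2-DMa was at 1271 and 1129 CPM in dendritic-like cells and at 238 and 202 CPM in macrophage-like cells. H2-DMb1 was at 1099 and 1016 CPM and at 207 and 166 CPM in these classes. In B cell-like cells H2-DMa was at 46.5 and 422 CPM (7 and 44 counts) and H2-DMb1 at 59.8 and 163 CPM (9 and 17 counts). H2-DMb1 there was below its level in macrophage-like cells in ENPP1CKO. In control the B cell-like level, 163 CPM on 17 counts, was close to the 166 CPM of macrophage-like cells. Without Jchain cells H2-DMb1 was at 111 and 181 CPM in B cell-like cells, on 2 and 14 counts. Cd74, the invariant chain, was at 37790 and 35998 CPM in dendritic-like cells, 9271 and 7307 CPM in macrophage-like cells and 7363 and 20586 CPM in B cell-like cells. Ciita was sparse everywhere: 19 and 14 counts in dendritic-like cells (51.7 and 33.6 CPM), 42 and 57 counts in macrophage-like cells (6.11 and 6.73 CPM), and 0 and 4 counts in B cell-like cells. In 28 ENPP1CKO B cell-like cells a count of 0 allows up to 19.9 CPM of Ciita (3 counts of the total), and the control level was 38.4 CPM, with an interval from 10.5 to 98.3 CPM. Without Jchain cells the counts were still 0 and 4, and the upper end of the interval of the log2 ratio was 2.70, so a difference in Ciita was not detectable at this depth.

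Macrophage-like cells held 75.0% of all class II counts of the ENPP1CKO library and 73.7% of those of the control library, and dendritic-like cells, at 1.16% and 1.83% of the cells, held 19.1% and 20.2%. Over all cells the 7 genes made up 5893 CPM in ENPP1CKO and 7161 CPM in control, a log2 ratio of -0.28 (95% interval -0.29 to -0.27). In that comparison 9.7% of all genes were at least 1.5-fold lower in ENPP1CKO, and 0 of the 7 members were. The difference over all cells went the other way from that within macrophage-like cells, which were fewer in the ENPP1CKO library. With the levels of each class and library kept and the control's makeup of classes given to both, the ratio was 0.26, and with the ENPP1CKO makeup it was 0.23. With control levels in both and only the makeup differing, it was -0.51.

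The summed class II level of macrophage-like cells was higher in ENPP1CKO, at 17297 CPM against 13810 CPM, a log2 ratio of 0.32 (0.31 to 0.34). Without the clusters of these cells that came mostly from 1 library it was 0.029. The chain, chaperone and exchange factor genes, 6 of the 7, were higher, with log2 ratios of 0.38 for H2-Eb1 (0.34 to 0.41), 0.34 for H2-Aa, 0.34 for Cd74, 0.32 for H2-DMb1, 0.24 for H2-DMa and 0.22 for H2-Ab1, and their intervals left out 0. Without the clusters mostly of 1 library the ratios were 0.12 for H2-DMb1, 0.059 for H2-Eb1, 0.048 for Cd74, 0.046 for H2-DMa, 0.038 for H2-Aa and -0.073 for H2-Ab1. Ciita had a ratio of -0.14 with an interval from -0.75 to 0.46, so no difference was detectable at its depth. Its direction turned with cells thinned to 1000 counts (0.51) and as a mean over cells (0.27). By the 1.5-fold rule, 0 of 7 members were higher, where 4.22% of the 10825 genes with at least 20 counts were, and 0 were lower, where 15.1% were. The median log2 ratio was 0.32 over the 7 members and -0.13 over all genes of the class, a shift to set beside the members' values. Centred on that median the summed ratio was 0.46.

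**Figure D2:**
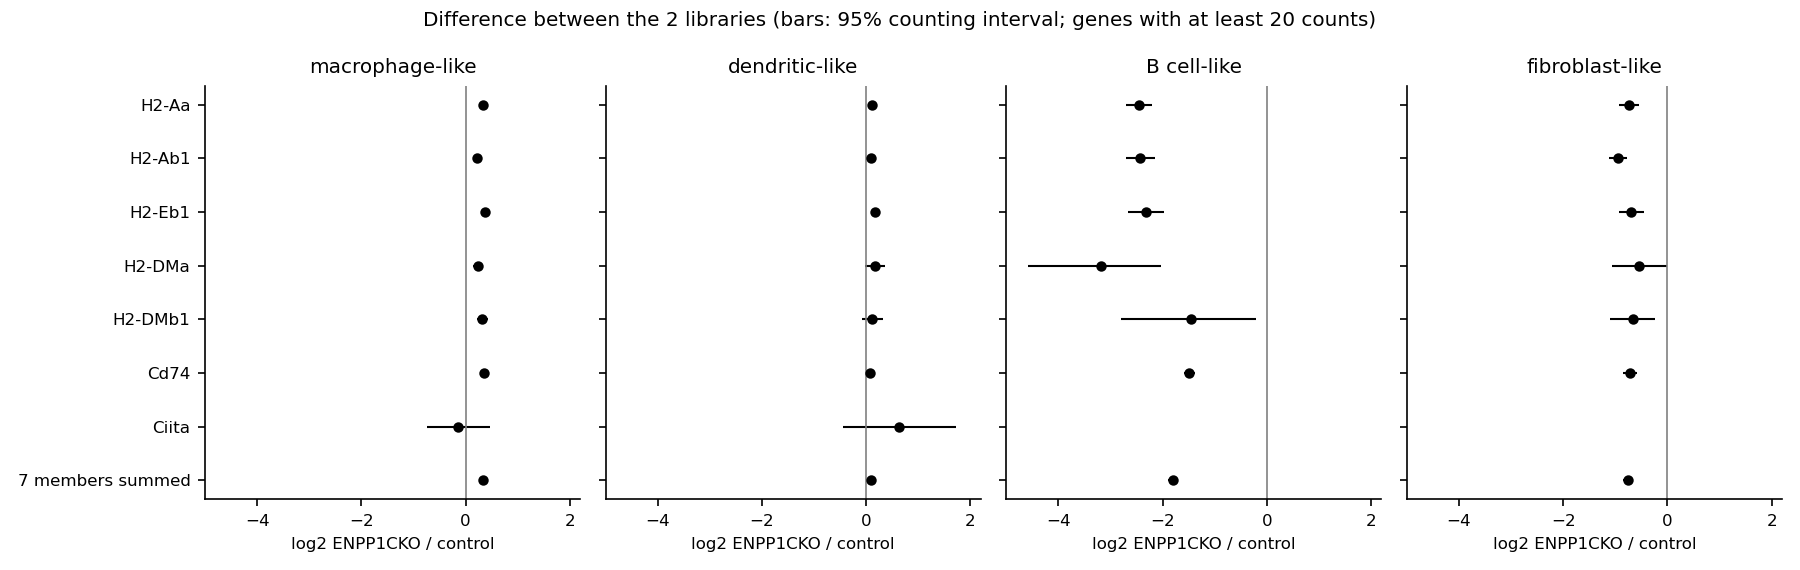
Log2 ratio of ENPP1CKO over control for each gene with at least 20 counts and for the sum, in 4 classes, with 95% intervals of counting error. The sums lie at 0.32 in macrophage-like, 0.10 in dendritic-like, -1.80 in B cell-like and -0.76 in fibroblast-like cells, and the Ciita intervals in macrophage-like and dendritic-like cells include 0.

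The macrophage-like cells fell into 4 clusters, made without class II genes, that differed in class II level and in their share of each library. Cluster 0 was led by Ms4a7, the chemokine Ccl8 and the complement genes C1qa, C1qb and C1qc, and held 61.3% of ENPP1CKO and 47.1% of control macrophage-like cells. Cluster 4 was led by Il1b, an inflammatory cytokine, the chemokine Ccl4 and the complement receptor gene C5ar1, and held 34.4% and 16.4%. Cluster 6 was led by the chemokine gene Ccl24 and held 2.57% and 32.2%, or 52 and 812 cells. Cluster 13 was led by Chil3 and the monocyte gene Ly6c2 and held 1.73% and 4.29%, or 35 and 108 cells.

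Class II was highest in cluster 4 in the control library, at 28183 and 39629 CPM in ENPP1CKO and control. It was intermediate in cluster 0 (10982 and 9677 CPM) and low in cluster 6 (2191 and 1289 CPM). Cluster 13 stood at 46479 and 17466 CPM, and in ENPP1CKO 1 of its 35 cells held 20.0% of the counts. The cells of cluster 6 thus carried the lowest class II level of the 4 clusters in both libraries.

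In cluster 4 the ratios of all 7 genes were below 0, beside a median of -0.03 over the 7918 genes measured there. For 6 of the 7 this was opposite to the class as a whole, and Ciita was below 0 in both. By the 1.5-fold rule 1 of 7, Ciita, was lower in ENPP1CKO, where 9.17% of genes were. The ratio of the sum was -0.49 (-0.51 to -0.48), with H2-Ab1 at -0.57, H2-Eb1 at -0.50, Cd74 at -0.48, H2-Aa at -0.47, H2-DMa at -0.42 and H2-DMb1 at -0.36. Ciita was at -0.79 with an interval from -1.83 to 0.23. H2-Aa was at 4748 CPM in the ENPP1CKO cells of cluster 4 and 6585 CPM in the control ones, and Cd74 at 15149 and 21102 CPM. Under the stricter cell filter (500 or more genes, and mitochondrial counts of 10% or less) 1 cluster took 2355 of the 2366 remaining cells of cluster 0 and 1079 of the 1085 of cluster 4, with a ratio of 0.04 for the sum. In cluster 0 the ratio of the sum was 0.18 (0.16 to 0.20), in cluster 6 it was 0.76 (0.58 to 0.94) and in cluster 13 it was 1.41 (1.35 to 1.47). In cluster 6, 1 of the 52 ENPP1CKO cells held 110 of 291 counts, and with the highest cell of each library left out the ratio was 0.31 (0.08 to 0.53), and 1.27 in cluster 13. These ratios depended on the clustering, and clusters were not matched between settings. At Leiden resolution 1.0 the 6 macrophage-like clusters had ratios of -0.50, -0.10, -0.06, 0.58, 0.74 and 1.82. With doublets kept the 4 clusters had -0.59, 0.62, 0.65 and 0.73, with class II genes kept in the clustering the 5 clusters had -0.35, -0.13, 0.35, 0.45 and 0.86, and with the stricter cell filter the 3 clusters had 0.04, 0.72 and 1.28.

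Levels of macrophage-like cells were also computed with a common cluster makeup. With the control's cluster makeup given to both libraries the ratio of the sum was -0.0017, with the ENPP1CKO makeup it was -0.22, and with only the makeup differing it was 0.54 at control levels and 0.33 at ENPP1CKO levels. Clusters 6 and 13 came mostly from the control library (95.6% and 81.0% of their cells at equal library size), and without them the ratio was 0.029. The 2 clusters that both libraries filled, 0 and 4 together, stood at 17197 and 16855 CPM in ENPP1CKO and control. This value depended on the setting: with class II genes kept in the clustering, the ratio at control makeup was -0.26, and with a stricter cell filter, which put nearly all cells of clusters 0 and 4 in 1 cluster, it was 0.14.

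**Figure D3:**
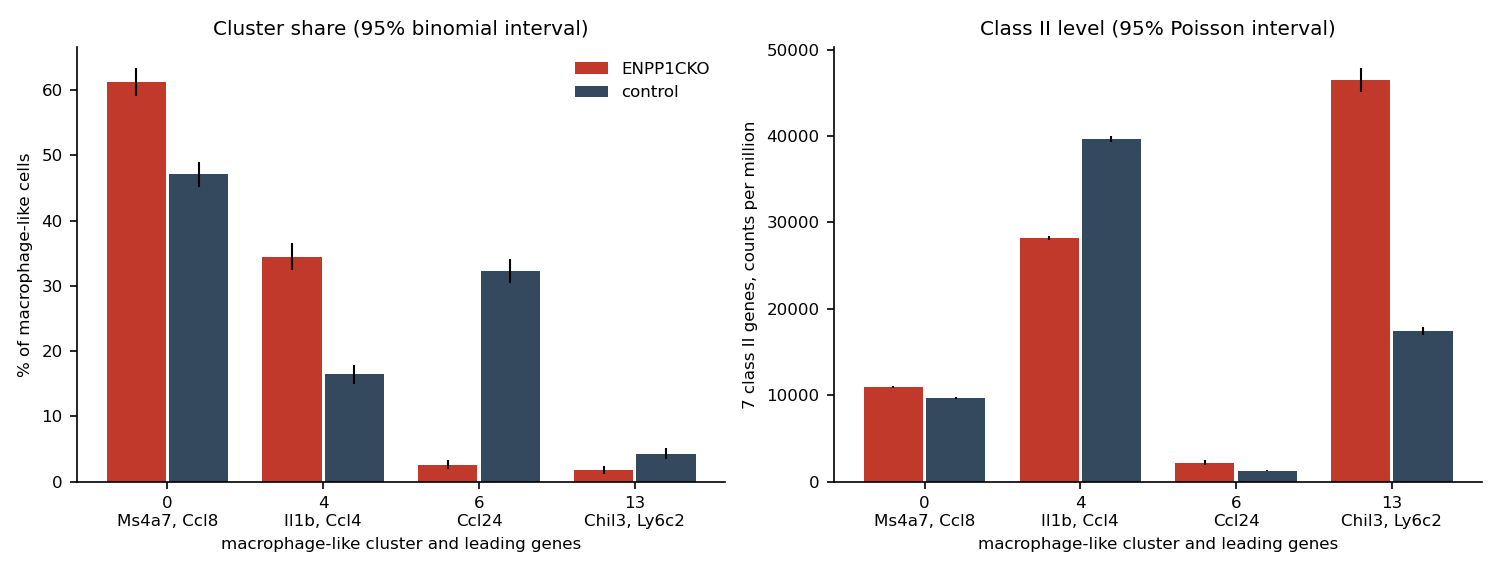
Left, share of macrophage-like cells in each of 4 clusters with 95% binomial intervals; right, summed level of the 7 genes in CPM with 95% Poisson intervals, ENPP1CKO in red and control in blue-grey. Cluster 6 (Ccl24) held 32.2% of control cells at 1289 CPM, and cluster 4 (Il1b, Ccl4) was at 28183 and 39629 CPM in ENPP1CKO and control.

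Single macrophage-like cells differed far more than the libraries did. Each cell was thinned to 1000 counts, which 1960 of 2022 ENPP1CKO and 2322 of 2520 control cells could give. Of these, 36.2% and 41.9% had 0 class II counts and 27.1% and 31.1% had 1 to 4, while 4.74% and 3.23% had 100 or more. At least 20 class II counts per 1000 were found in 482 ENPP1CKO cells (24.6%, exact binomial interval 22.7% to 26.6%) and in 431 control cells (18.6%, 17.0% to 20.2%). These cells held 90.5% and 89.7% of the class II counts, and their median was 60 and 59 per 1000. Over the class the libraries differed by 6.03 percentage points in how many cells were class II high. The median of a high cell, which the cut at 20 bounds from below, differed little. By cluster that median was 48 and 48 in cluster 0, 67 and 72 in cluster 4, and 78 and 52 in cluster 13, on 15 and 26 high cells. A cell just under 20 is not a different type, and 12.1% and 8.48% of cells had 5 to 19.

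In cluster 4 the share of class II high cells was 37.3% in ENPP1CKO (33.6% to 41.0%) and 49.9% in control (44.9% to 54.8%). In cluster 6 it was 0 of 42 and 6 of 659 cells, and in cluster 13 it was 15 of 33 (45.5%, 28.1% to 63.6%) and 26 of 104 (25%, 17.0% to 34.4%). In clusters 0 and 4 together it was 24.8% (22.8% to 26.8%) and 25.6% (23.4% to 27.8%), intervals that overlap. Without thinning, 50% of the class II counts of macrophage-like cells lay in 152 of 2022 ENPP1CKO cells (7.52%) and in 142 of 2520 control cells (5.63%).

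**Figure D4:**
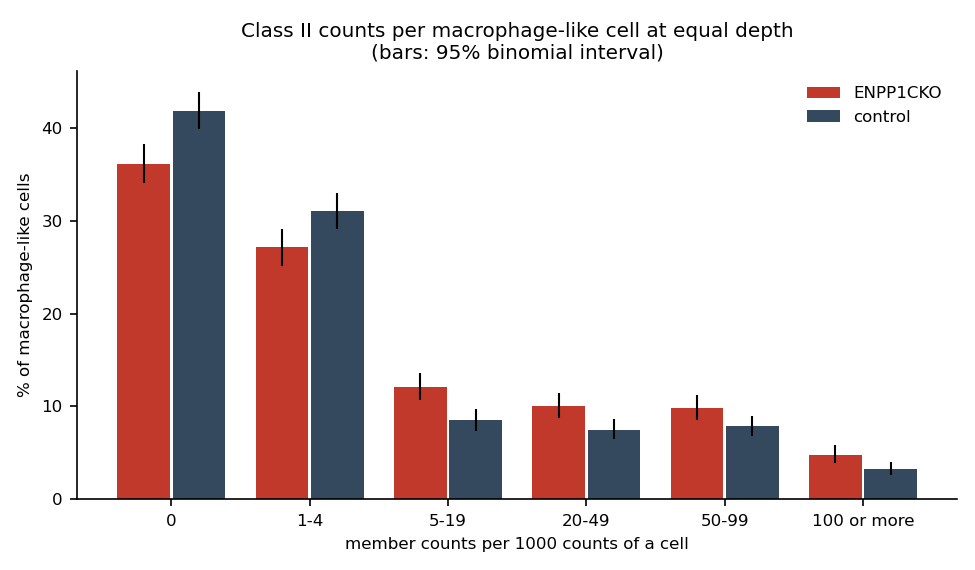
Share of macrophage-like cells by their number of class II counts per 1000 counts, with 95% binomial intervals, ENPP1CKO in red and control in blue-grey. The share with no count was 36.2% in ENPP1CKO and 41.9% in control, and the share with at least 20 was 24.6% and 18.6%.

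Ciita, although rarely counted, was counted in cells with high class II. The 38 ENPP1CKO and 53 control macrophage-like cells with a Ciita count had a median of 71 and 70 class II counts per 1000, and 28 of 35 and 41 of 51 that could be thinned had at least 20. Cells without one had a median of 1 in both libraries, and 23.6% and 17.2% of them had at least 20. The median depth of cells with and without a Ciita count was 3430 and 3239 in ENPP1CKO and 4021 and 3181 in control. Ciita is itself a member, at 1 or a few counts of a cell's sum. In dendritic-like cells, where class II was high in most cells, the medians were 90 and 89 with a Ciita count and 85 and 76 without. The median depth of dendritic-like cells with and without one was 5257 and 3325 in ENPP1CKO and 5302 and 3684 in control.

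Dendritic-like cells, the class known for priming T cells, had close levels of class II in the libraries. The ratio of the sum was 0.10 (0.07 to 0.12), with 0.16 for H2-Eb1, 0.12 for H2-Aa, 0.08 for H2-Ab1 and 0.07 for Cd74. H2-DMa (0.17, interval -0.02 to 0.36) and H2-DMb1 (0.11, -0.09 to 0.31) had intervals that included 0. The count of members at least 1.5-fold higher was 1 of 7, where 8.37% of 3811 genes were. That member was Ciita, at 19 against 14 counts, a ratio of 0.62 with an interval from -0.45 to 1.73, and with cells thinned it was -0.34. Lower by that fold were 0 of 7, where 21.9% of genes were.

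Cd74 was counted in all dendritic-like cells of both libraries at 1000 counts per cell. The 10 dendritic markers were all counted, at a summed 1284 CPM in ENPP1CKO and 2340 CPM in control, and the 12 macrophage markers stood at 1981 and 1521 CPM. The part of these markers in the result was not tested. Subsets were set by markers after their values had been seen. Of 180 cells, 37 had counts of Ccr7, Fscn1 or Ccl22, genes of migrating mature dendritic cells, and of neither other set, with 78329 CPM of class II in ENPP1CKO and 55103 CPM in control. The 30 cells with Xcr1 or Clec9a alone, of cross-presenting dendritic cells, had 79323 and 83827 CPM, and the 43 with Cd209a alone had 91130 and 89439 CPM. A further 25 cells had more than 1 of these sets (99826 and 82677 CPM) and 45 had none (67800 and 75651 CPM), so the direction between the libraries was not the same in all subsets. H2-DMa was lowest in the Ccr7 set of these 3, at 1004 and 483 CPM, against 1489 and 1286 CPM in the Xcr1 set and 1468 and 1366 CPM in the Cd209a set.

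With Jchain cells included, B cell-like cells showed the widest gap among the 3 antigen-presenting classes. The sum was 10127 CPM in 28 ENPP1CKO cells (1524 counts) and 35334 CPM in 81 control cells (3680 counts), a ratio of -1.80 (-1.89 to -1.72). H2-DMa was at 46.5 and 422 CPM (-3.18, on 7 and 44 counts), H2-Aa at 1110 and 6059 CPM (-2.45) and Cd74 at 7363 and 20586 CPM (-1.48). All 6 members with at least 20 counts were at least 1.5-fold lower in ENPP1CKO, but so were 65.2% of the 1172 genes measured, whose median ratio was -0.95. Centred on that median the ratio of the sum was -0.86.

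The B cell-like cells of the 2 libraries differed in their markers. Jchain, which joins the chains of secreted antibodies, was counted in 12 of 28 ENPP1CKO cells and 2 of 81 control cells. Summed, the 5 plasma cell markers stood at 70670 and 12578 CPM in ENPP1CKO and control, with Derl3 at 0 in control. The 8 B cell markers stood at 1389 and 5915 CPM, with Pax5 at 0 in ENPP1CKO and 13 counts in control. Cells with Jchain were also deep, with a median of 10594 counts in ENPP1CKO against 874 in cells without. Without Jchain cells the sum was 34611 CPM in 16 ENPP1CKO cells and 38272 CPM in 79 control cells, a ratio of -0.15 (-0.27 to -0.02). In Jchain cells it was 6795 CPM in ENPP1CKO and 26834 CPM in the 2 control cells, 1 of which held 665 of 718 counts.

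**Figure D5:**
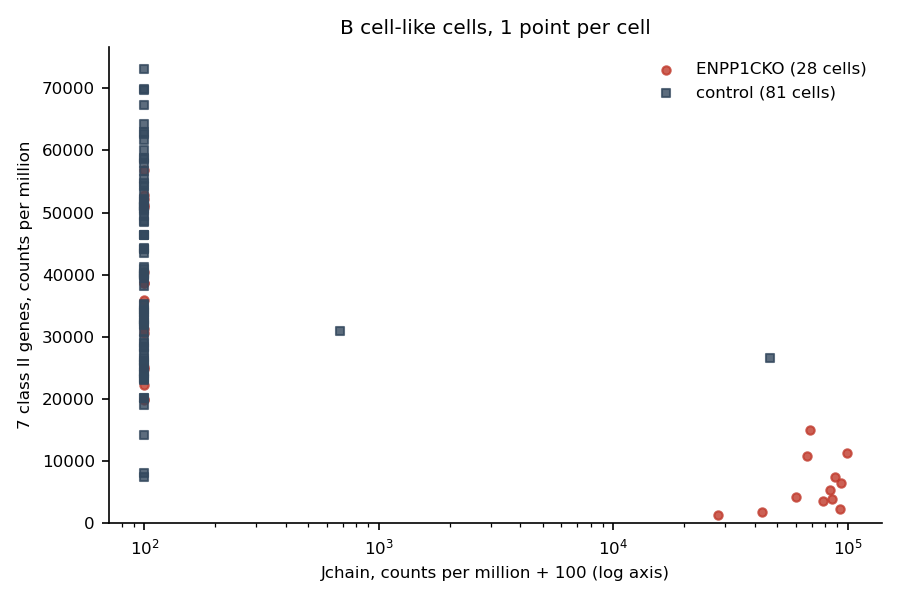
Each point is 1 B cell-like cell, with Jchain in CPM plus 100 on a log axis against the summed level of the 7 class II genes in CPM; ENPP1CKO in red circles, control in blue-grey squares. Cells with Jchain counts, 12 of 28 in ENPP1CKO and 2 of 81 in control, lie to the right, and the summed class II level of the ENPP1CKO ones was 6795 CPM.

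Fibroblast-like cells, the type in which the Cre is driven, held few class II transcripts and fewer in ENPP1CKO. The sum was 147 CPM (2361 counts) in ENPP1CKO and 249 CPM (2423 counts) in control, a ratio of -0.76 (-0.84 to -0.68). The libraries filled the clusters of this class unequally, cluster 1 with 1810 ENPP1CKO and 394 control cells and cluster 3 with 415 and 696. The ratio of the sum was -0.63 in cluster 1, -0.78 in cluster 2, -0.81 in cluster 3 and -1.49 in cluster 10. In cluster 10, 1 control cell held 76 of 197 counts. H2-Aa was at 29.5 and 49.0 CPM and Cd74 at 56.4 and 92.3 CPM. Of 6 members with at least 20 counts 5 were at least 1.5-fold lower, where 7.23% of the 12621 genes were, and the median of all genes was 0.01. Ciita was counted 1 time in ENPP1CKO and 0 times in control.

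Genes of macrophages moved with this difference. In fibroblast-like cells the 3 C1q genes, which macrophages make, stood at 157 and 218 CPM in ENPP1CKO and control, and the 12 macrophage markers, all counted, at 347 and 610 CPM. There were 0.93 class II counts for each C1q count in ENPP1CKO fibroblast-like cells and 1.14 in control ones, against 0.95 and 1.03 in macrophage-like cells and 1.19 and 1.33 over all cells of each library. At 1000 counts per cell, Cd74 had a count in 5.69% (ENPP1CKO) and 9.50% (control) of fibroblast-like cells (unthinned 21.1% and 35.7%, median depths 4024 and 5074), against 51.5% and 43.0% of macrophage-like cells (unthinned 63.7% and 57.8%, median depths 3244 and 3210). A free RNA profile scaled to the C1q genes exceeded the class II sum of fibroblast-like cells in both libraries, so its subtraction left no ratio of the sum. That scaling takes all C1q there as free RNA. The separate parts of free RNA and attached macrophages were not tested, and the shares in fibroblast-like cells are not read as expression.

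The other genes of the pathway did not move as one in macrophage-like cells. These lists are described by their counts and medians, beside the median of -0.13 over all genes, of which 66.9% were lower. Of 13 regulators of class II, all with at least 20 counts, 7 were higher and 6 lower in ENPP1CKO, with a median of 0.01. Rfxank, a subunit of the factor on the X box, was at 0.47 and Nlrc5, the class I counterpart of Ciita, at 0.33. Irf4, a transcription factor of the interferon regulatory factor family, was at -1.46. Of 5 other class II genes 2 had at least 20 counts, H2-Ob at 0.54 and H2-DMb2 at -0.36.

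Of 9 genes of class II processing and turnover 8 were measured, 4 higher and 4 lower, with a median of -0.09. Cd83, which protects surface class II from degradation, was at 0.75 and Cst3, a cathepsin inhibitor, at 0.46, while Ctsl was at -0.75 and Ctss, a protease that cuts the invariant chain, at -0.38. Of 6 costimulation genes 5 were measured, 2 higher and 3 lower, with a median of -0.43. Icosl was at 1.10 and Cd86 at 0.67, while the inhibitory ligand Cd274 was at -1.19 and Cd40 at -0.56.

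Of 13 class I presentation genes 4 were higher and 9 lower, with a median of -0.03, from H2-Q7 at 0.45 and B2m at 0.22 to Tap1 at -0.54 and Erap1 at -0.39. Of 12 genes of interferon gamma signalling 10 were measured, 3 higher and 7 lower, with a median of -0.10. Cxcl9, a chemokine that interferon gamma induces, was at 8.58 and 40.5 CPM in ENPP1CKO and control (-2.24) and Cxcl10 at -0.99, while Socs1, which restrains the signal, was at 0.16. The list also held Cd4, the T cell coreceptor that binds class II and no part of that pathway, at 0.30, and without it 2 of 9 were higher and 7 lower, with a median of -0.12. In a recomputation added after seeing the data, without the clusters mostly of 1 library, 56.8% of all genes were lower (median -0.04). Of the costimulation genes 3 were then higher and 2 lower (median 0.32), turning the sign of that median, and class I presentation had 8 of 13 lower (median -0.13) and interferon gamma signalling 7 of 10 (median -0.14). Cxcl9 was at -2.52, Ctsl at -0.66, Ctss at -0.56, Cd83 at 0.55 and Icosl at 0.93, while H2-Ob (0.19), Cd274 (-0.63) and Erap1 (-0.25) had intervals that included 0, Socs1 (-0.08) and Cd4 (-0.04) were below 0, and Irf4 had 5 and 8 counts.

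Ifng itself was counted 49 and 45 times in all, 44 and 42 of them in T or NK cell-like cells (128 and 145 CPM).

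In dendritic-like cells, whose class II level differed little, 5 of the 6 surrounding lists had more genes lower than higher in ENPP1CKO, where 61.5% of all genes measured were lower. Of 12 class I presentation genes measured 11 were lower (median -0.43), of 7 of interferon gamma signalling 7 (median -0.78), of 8 of processing 6 (median -0.41) and of 4 of costimulation 4 (median -0.92), beside a median of -0.14 over all genes. The 6 regulators measured had a median of -0.16, with 5 lower, and of 3 other class II genes 2 were higher (median 0.38). Irf1 was at -1.99 there, on few cells.

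H2-Oa and H2-Ob encode the partner that holds the exchange factor back, and are known from B cells and dendritic cells. H2-Ob stood at 177 and 74.5 CPM in ENPP1CKO and control dendritic-like cells, a ratio of 1.25 (0.61 to 1.91), at 39.9 and 317 CPM in B cell-like cells and at 2.91 and 2.01 CPM in macrophage-like cells. H2-Oa stood at 250 and 192 CPM in dendritic-like cells, at 59.8 and 230 CPM in B cell-like cells and at 1.02 and 0.83 CPM in macrophage-like cells. Each of these genes was lower in macrophage-like than in dendritic-like and B cell-like cells of both libraries. The B cell-like values include the Jchain cells, 12 of 28 in ENPP1CKO and 2 of 81 in control, and are not given without them.

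Across 16 sums (8 classes with at least 20 cells in each library, by 2 libraries) the genes whose log2(CPM + 1) ran most like the mean of H2-Aa, H2-Ab1, H2-Eb1 and Cd74 were sought among 10271 genes. H2-DMa had a Pearson r of 0.96 and H2-DMb1 of 0.94, and Ciita had too few counts to enter. Among other genes the 8 highest were Napsa (0.95), Cd86, Cd83, Rgs18, Pkib and Themis2 (each 0.94), Rel (0.93) and Scimp (0.92). The 16 sums share 2 libraries and pairs of the same class, so these values are a description and carry no p.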

How the data were processed

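Single-cell libraries of nonmyocytes, 1 of ENPP1CKO and 1 of control hearts, were analysed out of 37 samples of the series. The authors deposited unnormalized counts, 1 table a library, with genes by barcodes. The submitters' processing notes name Cell Ranger, with no version, and STAR 2.5.3a with the mm10 build. IDs were matched to symbols for 30934 of 31053 genes with the GENCODE annotation of GRCm38.

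From 7460 and 5347 barcodes, those with 200 genes or more and no more than 20% of counts from mitochondrial genes were kept. A doublet score (Scrublet) marked 154 (2.08%) and 73 (1.38%) cells, which were removed. Cells were clustered with scanpy 1.11.5 and leidenalg 0.10.2 in Python 3.11.15 (2000 variable genes without class II genes, 30 components, 15 neighbours, resolution 0.5). A cluster was called X-like when it led in at least 3 fixed markers, and a dividing cluster and one with mesothelial markers remained unnamed. Names are rebuilt here and may differ from the study's.

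Counts were summed per class and library and given as CPM (counts for each 1000000). Levels have exact Poisson intervals, shares exact binomial (Clopper-Pearson) intervals and ratios exact conditional binomial intervals (scipy 1.17.1), at 95%. A gene counted as past the fold at 1.5-fold with at least 20 counts over both libraries. All 7 members are given in every class. Of each other list, the 2 highest and 2 lowest ratios in macrophage-like cells are named, and the genes most like the members are the 8 with the highest correlation among genes with at least 200 counts. A gene that this rule names and a leading gene of a cluster are not reported here. Members and lists were chosen with earlier results of these data known. Scripts were tested on simulated data. Alternatives changed the cell filter, doublets, resolution, clustering genes, depth, weight of cells, scaling and free RNA.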

Additional observations from a re-analysis of the deposited data

Results flagged for a closer look

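The difference between the libraries ran opposite to that of macrophage-like cells (0.32 on the log2 scale, ENPP1CKO over control) in 5 other classes with at least 100 class II counts over both libraries and in 1 macrophage-like cluster, with intervals that left out 0. The summed class II ratio was -1.80 in B cell-like cells, -0.76 in fibroblast-like cells, -0.96 in neutrophil-like cells on 13 and 131 counts, -1.86 in lymphatic endothelial-like cells on 40 and 82 counts, and -2.68 in smooth muscle or pericyte-like cells on 74 and 417 counts. In cluster 4 of the macrophage-like cells it was -0.49. With 1 library of each genotype the difference between any of these ratios and that of macrophage-like cells was not tested. Without Jchain cells the ratio in B cell-like cells was -0.15, and in fibroblast-like cells the 12 macrophage markers stood at 347 and 610 CPM in ENPP1CKO and control, whose part in the ratio there was not tested. In the control library 1 cell held 60.3%, 63.4% and 79.1% of the counts of the neutrophil-like, lymphatic endothelial-like and smooth muscle or pericyte-like cells. Schwann or glial-like cells, under that minimum, had 0 and 10 counts, and the upper end of the interval of their ratio was -0.89.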

How the results depend on the processing

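No paired analysis was possible because each genotype had 1 library. The ratio of the sum in macrophage-like cells (0.32) was 0.34 with doublets kept, 0.35 at Leiden resolution 1.0, 0.43 with cells thinned to 1000 counts, 0.50 as a mean over cells, 0.46 centred on the median gene and 0.34 with free RNA subtracted. It was 0.029 without clusters mostly of 1 library. In an alternative added after seeing the data, with clusters weighted as in the control, it was -0.0017 with the main clustering, 0.14 with the stricter filter, 0.025 with doublets kept, -0.070 at resolution 1.0 and -0.26 with class II genes kept in the clustering. The sum in dendritic-like cells (0.10) was 0.14 thinned and 0.24 centred. In B cell-like cells (-1.80) it was -1.45 thinned, -0.77 as a mean over cells, -0.86 centred and, added after seeing the data, -0.15 without Jchain cells. Over all cells (-0.28) it was -0.36 thinned and -0.41 as a mean over cells. In fibroblast-like cells the sum (-0.76) lay from -0.84 to -0.70 over 7 alternatives. These leave out the subtraction of free RNA, where the subtracted profile exceeded the sum in both libraries and no ratio could be formed. H2-Ab1 there (-0.94) reached -2.52 and H2-DMb1 (-0.66) reached -1.32, with no direction turned. Ciita in dendritic-like cells went from 0.62 to -0.34 when thinned. In macrophage-like cells Ciita (-0.14) was 0.51 thinned and 0.27 as a mean over cells. The sum in endothelial-like cells (-0.06) was -1.18 with doublets kept and -1.45 with the stricter filter and, turned in direction, 0.50 with free RNA subtracted. Leaving out the highest cell of each library in the macrophage-like clusters was also added after seeing the data. Why these values moved was not tested. Ciita, with 42 and 57 counts in macrophage-like cells, was too shallow to show a difference of the size seen in the other members.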

Other observations

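A dividing cluster left unnamed, since it held both macrophage and fibroblast genes, had 6529 CPM of class II in ENPP1CKO and 1553 CPM in control, a log2 ratio of 2.07. The C1q genes stood at 5797 and 3505 CPM and the collagen genes at 8952 and 13309 CPM in the same cells. Of 12 macrophage markers 10 were higher in ENPP1CKO, with Cd68 at 328 and 321 CPM, while Lyz2 was at 3433 and 4435 CPM, and the 12 together stood at 10955 and 9294 CPM. The part of these markers in that ratio was not tested. Of the class II counts of this dividing cluster, 50% lay in 6 of 103 ENPP1CKO cells and 4 of 118 control cells. The highest cell held 602 of 4395 counts in ENPP1CKO and 289 of 1427 in control. In an unnamed cluster with mesothelial markers class II was lower in ENPP1CKO, 447 against 887 CPM (-0.99).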
